A study of Mus musculus with 9 samples.

Results

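Cells with more than 2 chromosome sets were compared with diploid cells of the same genotype. The comparison set the 6 clones whose titles name them triploid (3) or tetraploid (3) against the 3 clones named diploid, and it used all 9 samples of the series. Each clone of mouse embryonic cells was measured on 1 one-colour Agilent array. All 9 clones, the diploid controls included, carry the genotype p53-/-, were left untreated and grew in MEM with serum. Each clone is thus 1 line and 1 array, and the polyploid group joins 2 kinds of clone. The names of 8 clones begin with RRI2, the name of diploid clone 1, and diploid clone 2 is named RRI15. Whether the clones of 1 ploidy stem from separate cultures or animals is not stated, so p-values measure only the spread between these samples, which may be technical.

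Polyploid cells carry whole extra sets of chromosomes, so that every gene gains copies together. They arise when a cell copies its DNA and fails to divide, or when cells fuse, and they are found in normal tissues such as trophoblast giant cells and in many tumours. The tumour suppressor p53 commonly arrests cells that become tetraploid, and p53-deficient cells are therefore often used to propagate polyploid lines. Because an array is scaled to its own signal, a doubling of all transcripts cannot be seen on it. What can be seen is a gene whose share of the RNA differs.

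Levels are log2 processed signals above or below each array's own 75th percentile, and a difference is a polyploid mean minus the diploid mean on that scale, with triploid and tetraploid clones weighted alike. A probe that the scanner software did not call well above background is described as dark, and one that it did as bright. Between 44.8% and 50.9% of spots per array were bright and 0 were saturated. The Trp53 probe, for the gene that encodes p53, was bright on diploid clone 2 alone, at -3.15. Its difference was -0.53 over all clones and 0.06 without diploid clone 2, and no label says whether it falls inside the deletion. Of 6 fibroblast markers, Col1a1, Col1a2, Col3a1, Pdgfra and Vim were bright on all 9 arrays, and Thy1 was bright on 3 diploid and 4 polyploid arrays. Of 4 pluripotency genes, Pou5f1 and Zfp42 were dark on all 9, Nanog was bright on all 9 and Dppa5a was bright on 3 diploid and 5 polyploid arrays. The Y-linked genes Ddx3y and Eif2s3y were bright in the 3 diploid clones and tetraploid clones 1 and 2 and dark in the other 4. Kdm5d, also Y-linked, was dark on all 9 arrays, and Uty was bright on 1 diploid array by 1 of its 2 probes. Xist, of X inactivation, was bright on 2 diploid and 3 polyploid arrays. The part of these splits in the results below was not tested. In bulk samples, fewer cells of a type and less RNA per cell cannot be told apart.

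Few features passed the adjusted test between polyploid and diploid clones, and nearly all of those were lower in the polyploid clones. Features at which all 6 polyploid clones lay outside the diploid range were more numerous and went both ways. Of 21800 features tested, 12437 of them named genes, 55 (0.252%) passed an adjusted p of 0.05 in limma with Benjamini-Hochberg adjustment, 3 of them higher (0.0138%) and 52 lower (0.239%). An unadjusted p under 0.05 was reached by 3701 features (17.0%). The 55 comprised 27 named genes, 3 higher and 24 lower, and 28 probes without a gene name. All 6 polyploid clones lay above the diploid range at 835 features (3.83%) and below it at 814 (3.73%), which makes 1649 (7.56%) outside it. With clones left out, the total was 3195 for diploid clone 1, 2956 for diploid clone 3, 2584 for triploid clone 1 and 2812 for tetraploid clone 3. Those above had a median difference of 0.65 and those below one of -1.01, and of the 530 that differed by over 2-fold, 113 were higher and 417 lower. With the percentile taken over the probes bright on all arrays, which moved the median of all features from 0.04 to -0.09, 473 lay above and 1221 below.

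The count of 55 rested on single clones. It was 8, 20 and 22 when diploid clones 1, 2 and 3 were left out in turn, and 592, 18 and 29 when triploid clones 1, 2 and 3 were. Diploid clone 1 was also the single array on its slide, and the other 8 shared a slide, so slide and clone cannot be told apart for it. Without triploid clone 1, all 55 were called, and without diploid clone 1, 7 of them. Of the 27 named genes, Cracd and Adgrg5 were called with any of the 9 clones left out. The other 25 did not pass without diploid clone 1, at adjusted p of 0.064 to 0.102.

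The lower genes were sorted into patterns by how triploid and tetraploid clones compared. Both contrasts came from the same fit with a shared spread per feature, so features of small spread are favoured in both. The share below is therefore not independent of the choice of the 55. Triploid and tetraploid clones differed at 19 of the 55 (adjusted p under 0.05, limma, same fit), against 591 of all features (2.71%), with the triploid clones lower at 15 and the tetraploid clones at 4. Leaving out diploid clone 1 or 3 made it 3 or 10, leaving out triploid clones 1, 2 and 3 in turn made it 222, 7 and 8, and leaving out tetraploid clone 1 made it 10, each over the features called in that fit. At the other 36 a difference between the 2 kinds of polyploid clone was not called. Among the 15 features called with only probes bright on all 9 arrays, 0 differed between triploid and tetraploid clones.

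**Figure D1:**
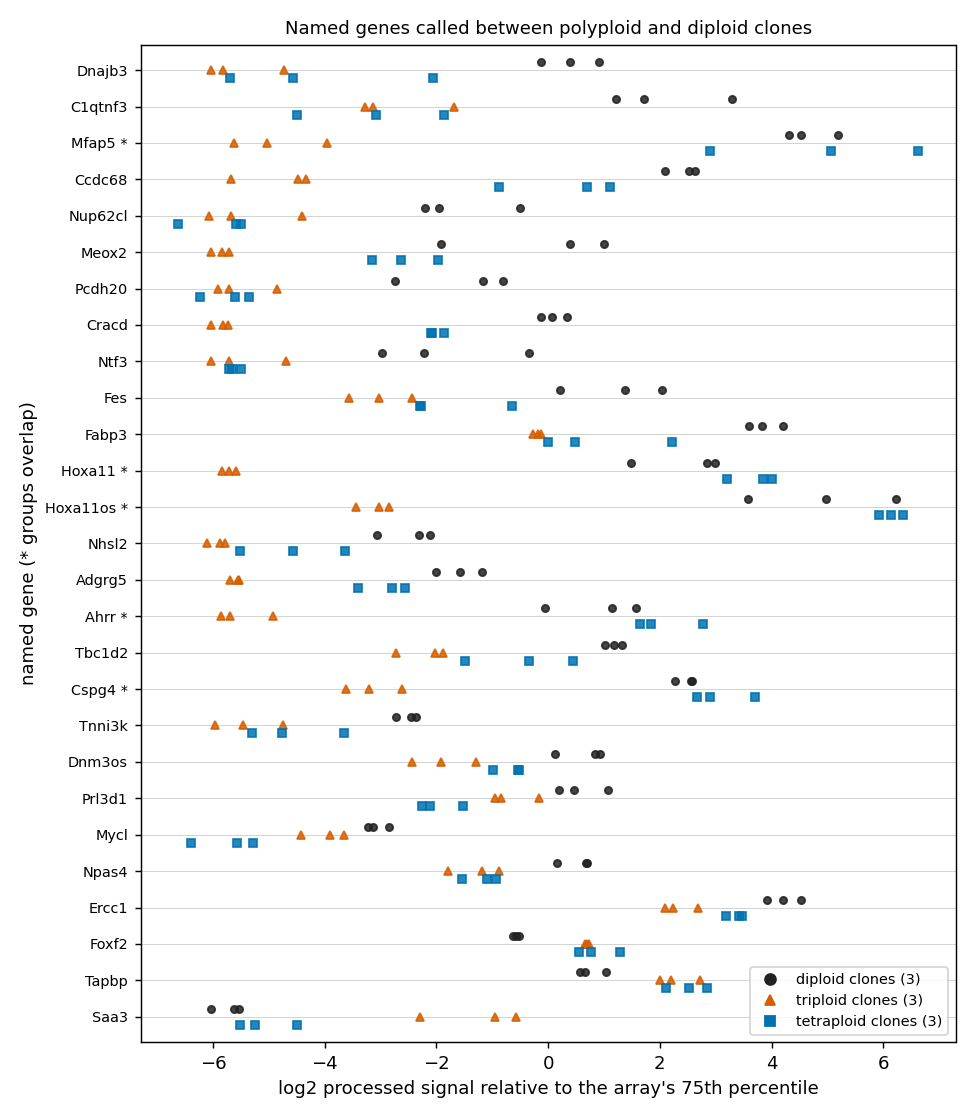
Log2 level (x axis, with each array's 75th percentile at 0) in each of the 9 clones for the 27 named genes called between polyploid and diploid clones (y axis), ordered by difference; circles are diploid, triangles triploid and squares tetraploid clones, and a star marks the 5 genes whose groups overlap. At 22 genes every triangle and square lies on 1 side of the circles, and for Hoxa11, Ahrr and Cspg4 the squares lie above the circles while the triangles lie far below.

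Genes of the first pattern had no called difference between triploid and tetraploid clones, which does not show the 2 kinds to be alike at them. Of the 55 called features, 13 were dark on all 6 polyploid arrays, and 6 of those were named genes. Such features entered the test only because they were bright on the 3 diploid arrays. At these, a bright diploid group was a condition of testing and is no separate result. Nup62cl, which resembles a part of the nuclear pore protein Nup62, had levels of -1.96, -2.20 and -0.50 in diploid clones 1 to 3, of -5.67, -6.07 and -4.40 in the triploid clones and of -5.58, -5.50 and -6.63 in the tetraploid clones. It was bright on the 3 diploid arrays and dark on all 6 polyploid arrays, and the groups did not overlap. Its level was at least 5.40-fold lower in polyploid clones (fitted difference -4.09 ± 0.49, SE, adjusted p = 0.0159, limma). A further probe for it, kept by the same filter, was likewise bright on the 3 diploid arrays and dark on all 6 polyploid arrays.

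Pcdh20, a protocadherin of cell contacts, had levels of -0.80, -2.75 and -1.16 in diploid clones, of -4.85, -5.91 and -5.71 in triploid clones and of -5.60, -5.36 and -6.23 in tetraploid clones. All 6 polyploid arrays were dark and lay at least 2.10 below the lowest diploid clone. The gene was at least 5.35-fold lower (fitted difference -4.04 ± 0.44, adjusted p = 0.0111, limma).

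C1qtnf3, a secreted protein of the C1q and TNF family, had levels of 1.71, 3.29 and 1.21 in diploid clones, of -1.69, -3.13 and -3.28 in triploid clones and of -3.08, -4.49 and -1.87 in tetraploid clones. The lowest diploid clone lay 2.89 above the highest polyploid clone. The difference was -4.99 ± 0.65 (31.8-fold, adjusted p = 0.026, limma), and another probe of the gene gave -5.06. Triploid and tetraploid clones differed by 0.44 ± 0.75 (adjusted p = 0.742).

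Dnajb3, a co-chaperone of the DnaJ family, had diploid levels of -0.12, 0.40 and 0.91, triploid levels of -4.73, -6.04 and -5.82 and tetraploid levels of -5.70, -4.57 and -2.06. Of the 6 polyploid arrays it was bright on 1. The polyploid clones were lower by a fitted -5.22 ± 0.69 (adjusted p = 0.0271, limma), or -3.90 with dark arrays set to the lowest bright signal of the array.

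Ntf3, the neurotrophin-3 growth factor, had diploid levels of -0.35, -2.23 and -2.98 and lay between -6.04 and -4.69 in all 6 polyploid clones, where it was dark. It was at least 4.39-fold lower (adjusted p = 0.0342, limma). Npas4, a transcription factor known from activity in neurons, was bright on all 9 arrays, with levels of 0.15, 0.69 and 0.67 in diploid clones, of -0.88, -1.79 and -1.18 in triploid clones and of -1.09, -1.54 and -0.93 in tetraploid clones. Its difference was -1.74 ± 0.26 (adjusted p = 0.0419), and the triploid and tetraploid means were -1.28 and -1.19. Fabp3, a carrier of fatty acids, fell from 3.82, 3.59 and 4.21 in diploid clones to between -0.27 and -0.12 in triploid clones, while tetraploid clones had 2.22, 0.48 and -0.01. Its difference was -3.52 ± 0.43 (adjusted p = 0.0175), and its other probe gave -3.57. Fes, a tyrosine kinase, was lower by -3.58 ± 0.50 (adjusted p = 0.0336) and was bright on all 9 arrays, with all 6 polyploid clones at or below -0.64 and all 3 diploid clones at or above 0.21. Ercc1, a nuclease subunit of DNA repair, was the called named gene with the smallest drop, at -1.36 ± 0.21 (adjusted p = 0.0483). The rest of this group were Nhsl2, at least 2.67-fold lower, Tnni3k, a kinase of cardiac muscle, at least 2.79-fold lower, Tbc1d2, a GTPase-activating protein for Rab (-2.51), and Dnm3os, a noncoding RNA transcribed against Dnm3 (-1.91). Of the other 4 Nhsl2 probes, 3 were dark on all 9 arrays and 1 was bright on 1 diploid array alone, so its call rests on 1 probe. At Fabp3, Fes, Ercc1, Tbc1d2 and Dnm3os, all bright on all 9 arrays, every triploid clone lay below every tetraploid clone. The difference was -1.02, -1.75 and -1.19 at the last 3 (adjusted p = 0.063, 0.0724 and 0.0945, limma). Between tetraploid and diploid clones alone, Nup62cl and Pcdh20 passed (adjusted p = 0.0457 and 0.0384, limma). The other genes of this group did not (0.0592 to 0.162).

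Genes of the second pattern had all 6 polyploid clones below the diploid range, with the triploid clones called lower than the tetraploid clones. The triploid arrays were dark for all 4 of them, so each size below is either a bound or a fitted value. Between tetraploid and diploid clones alone, Cracd passed (adjusted p = 0.0314, limma), and Ccdc68, Meox2 and Adgrg5 did not (0.123, 0.145 and 0.103). Cracd, a regulator of actin capping, had diploid levels of 0.33, -0.12 and 0.07, triploid levels of -5.73, -6.04 and -5.82 and tetraploid levels of -2.08, -2.10 and -1.86. The 3 groups did not overlap. It had the smallest adjusted p of all features (a fitted -4.03 ± 0.18, adjusted p = 6.13e-05, limma), or -2.98 with dark arrays set to the lowest bright signal of the array. The triploid clones were at least 3.37-fold below the tetraploid clones (adjusted p = 8.44e-05) and at least 14.5-fold below the diploid clones.

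Ccdc68, a protein of the centriole, had diploid levels of 2.52, 2.10 and 2.63, triploid levels of -4.48, -4.34 and -5.68 and tetraploid levels of 0.69, -0.88 and 1.11. The tetraploid clones lay between the other groups with no overlap. Its fitted difference was -4.68 ± 0.46 (adjusted p = 0.0077), or -4.14 with dark arrays at the lowest bright signal, and the triploid clones were at least 16.8-fold below the tetraploid clones (adjusted p = 0.00319). Meox2, a homeobox factor of mesoderm, had diploid levels of 0.39, 1.00 and -1.92, triploid levels from -6.03 to -5.72 and tetraploid levels from -3.16 to -1.98. The highest tetraploid clone missed the lowest diploid clone by 0.06. Its fitted difference was -4.05 ± 0.57 (adjusted p = 0.0336), or -3.0 with dark arrays at the lowest bright signal. Adgrg5, an adhesion receptor coupled to G proteins, had a fitted difference of -2.67 ± 0.25 (adjusted p = 0.0077), or -1.76 on the same terms, and was bright on 2 tetraploid arrays, with tetraploid clones at -2.79, -3.40 and -2.57 between diploid clones (-1.18, -1.57 and -2.0) and triploid clones, all at or below -5.53.

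Mycl, a member of the MYC family of transcription factors, had its lowest signals in the tetraploid clones. Its diploid levels were -3.13, -2.84 and -3.23, its triploid levels -4.43, -3.65 and -3.90 and its tetraploid levels -5.57, -5.28 and -6.39, dark on all 6 polyploid arrays. The polyploid clones were at least 1.84-fold lower (adjusted p = 0.0483). The fit called the tetraploid clones below the triploid clones (adjusted p = 0.0316), but with both dark no size of that difference can be given. Prl3d1, a placental lactogen of trophoblast giant cells, had diploid levels of 0.19, 0.47 and 1.07, triploid levels of -0.16, -0.84 and -0.95 and tetraploid levels of -1.52, -2.25 and -2.11 (-1.88 ± 0.29, adjusted p = 0.0427). Its difference between triploid and tetraploid clones did not pass (adjusted p = 0.0697). A second probe for Prl3d1 was dark on all 9 arrays.

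At the last 5 of the lower named genes the 3 triploid clones lay below the diploid range, and tetraploid values overlapped or exceeded it. Mfap5, a microfibril protein, had levels of 4.32, 5.19 and 4.52 in diploid clones, of -3.96, -5.63 and -5.04 in triploid clones and of 5.06, 2.89 and 6.63 in tetraploid clones. It was dark on the 3 triploid arrays, at least 395-fold below the tetraploid clones, and its fitted difference of polyploid from diploid clones was -4.69 (-4.13 with dark arrays at the lowest bright signal). Hoxa11, a limb and urogenital patterning factor, had 2.98, 1.48 and 2.84 in diploid clones, -5.59, -5.84 and -5.72 in triploid clones and 3.20, 4.01 and 3.84 in tetraploid clones. Its triploid arrays were dark, at least 175-fold below the tetraploid and at least 73.5-fold below the diploid clones. Its antisense transcript Hoxa11os ran alongside it, with tetraploid levels of 5.92, 6.35 and 6.13 against triploid levels of -2.85, -3.02 and -3.44, of which 2 were bright. Ahrr, the repressor of the dioxin receptor, and the proteoglycan gene Cspg4 made up the 5. Ahrr was dark on the 3 triploid arrays, at least 57.7-fold below the tetraploid clones, and a second Ahrr probe was bright on 1 polyploid array and no other. Cspg4, bright on 2 triploid arrays, had a triploid minus tetraploid difference of -6.24. These are differences of triploid clones and not of all polyploid clones.

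**Figure D2:**
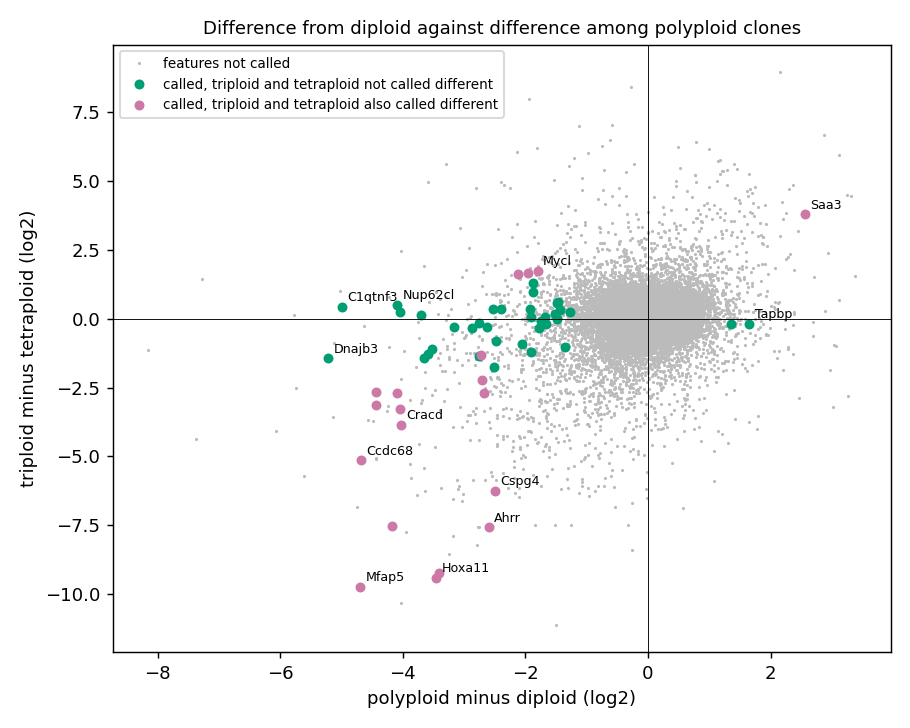
Polyploid minus diploid (x axis, log2) against triploid minus tetraploid (y axis, log2) for the 21800 features tested, with the 55 called features in colour and the others in grey. Of the 55, 36 (green) have no called difference between triploid and tetraploid clones, and at 19 (pink) the 2 kinds of polyploid clone differ, such as Hoxa11, at a fitted -9.40 with its triploid arrays dark.

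The 3 genes called higher were Tapbp, Foxf2 and Saa3. Tapbp encodes tapasin, which helps load peptides onto MHC class I. Its levels were 0.66, 0.57 and 1.04 in diploid clones, 2.20, 2.72 and 2.01 in triploid clones and 2.52, 2.11 and 2.84 in tetraploid clones. The lowest polyploid clone was 0.98 above the highest diploid clone, and the difference was 1.65 ± 0.24 (3.13-fold, adjusted p = 0.0403, limma). Foxf2, a forkhead factor of mesenchyme, had -0.63, -0.57 and -0.52 in diploid clones, 0.69, 0.74 and 0.66 in triploid clones and 0.76, 1.28 and 0.55 in tetraploid clones. Its difference was 1.35 ± 0.20 (2.55-fold, adjusted p = 0.0403), with a triploid minus tetraploid difference of -0.17 (adjusted p = 0.681). Saa3, an acute-phase protein, had levels of -5.63, -5.53 and -6.04 in diploid clones and of -5.51, -5.24 and -4.49 in tetraploid clones, all dark, and of -0.95, -0.58 and -2.30 in triploid clones, all bright. It was at least 1.53-fold higher over both kinds of polyploid clone (adjusted p = 0.0427), and at least 6.84-fold higher in triploid than in tetraploid clones (adjusted p = 0.00563). Its margin over the diploid range was 0.02, so the tetraploid clones did not clear it by more than their spread.

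Several genes lay above the diploid range in all 6 polyploid clones without passing the adjusted test. Ndrg1, a gene of the hypoxia and stress response, had 2.06, 1.80 and 1.52 in diploid clones and between 2.56 and 3.75 in polyploid clones (1.44 ± 0.25, adjusted p = 0.0597). Cxcl1, a chemokine that attracts neutrophils, had 1.61, 1.61 and 1.98 in diploid clones and between 2.98 and 5.02 in polyploid clones (2.39 ± 0.42, adjusted p = 0.0599). Bmf, a pro-apoptotic member of the BCL2 family, was at -2.52, -2.77 and -2.46 in diploid clones and at -2.21, -1.77 and -2.44 in tetraploid clones, close to the diploid range, while triploid clones had -0.71, 0.03 and -0.31. Plat, the tissue plasminogen activator, differed by 1.40 (adjusted p = 0.0608), Ptpn18, a tyrosine phosphatase, by 1.80 and Echdc3 by 2.08 (both at adjusted p = 0.0597). The other 3 named by the same rule were P3h2, a collagen hydroxylase, dark on the 3 diploid arrays and at least 3.0-fold higher in polyploid clones, and Morn5 (a fitted 2.07) and 1700029J07Rik (1.47), each bright on 1 diploid array.

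Of the 28 called probes with no gene name, 17 lie in 12 intervals that the array design gives by position on mouse build mm9, and the other 11 carry accessions with no symbol here. All 28 were lower in polyploid clones. The intervals with more than 1 called probe were on chromosomes 13, 5 and 19. In chr13:15947521-15999246 (forward strand), 3 of 4 tested probes were called and all 4 lay below the diploid range, with fitted differences from -4.44 to -3.33. The 3 called were dark on the triploid arrays, and gave -3.76 to -3.28 with dark arrays at the lowest bright signal. In chr5:77239012-77271614 (forward strand), all 3 tested probes were called, at fitted differences between -2.72 and -2.63. Of these, 2 were dark on all 6 polyploid arrays, and were at least 2.78-fold and 1.85-fold lower. The other was dark on the triploid arrays, and gave -1.96 with dark arrays at the lowest bright signal. In chr19:5798135-5800557 (reverse strand), 2 of 3 were called, between -1.48 and -1.33 over all 3, and these were bright on all 9 arrays. Probes within an interval share a transcript and are not independent. One probe, A_52_P479262, gave levels of 3.76, 4.32 and 3.87 in diploid clones and of 3.64, 2.84 and 4.19 in tetraploid clones against -3.63, -3.88 and -4.34 in triploid clones.

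The array files held no probe sequences, so the starts of 4 of the called genes are shown instead, 250 bases before to 50 after the RefSeq start, on GRCm38.p6. Nup62cl, Pcdh20 and Cracd were the named genes that passed in triploid and in tetraploid clones, each against the same diploid clones, and Foxf2 is shown for the higher genes. CG pairs, at which DNA can be methylated, are in capitals.

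Nup62cl (chrX:140062519-140062818, reverse strand): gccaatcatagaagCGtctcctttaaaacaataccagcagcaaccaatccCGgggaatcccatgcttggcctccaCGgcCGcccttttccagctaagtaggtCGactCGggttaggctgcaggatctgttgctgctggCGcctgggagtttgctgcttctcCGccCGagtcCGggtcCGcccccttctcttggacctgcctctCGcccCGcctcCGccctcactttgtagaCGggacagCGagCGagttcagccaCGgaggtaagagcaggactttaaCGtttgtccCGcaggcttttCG

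Pcdh20 (chr14:88471347-88471646, reverse strand): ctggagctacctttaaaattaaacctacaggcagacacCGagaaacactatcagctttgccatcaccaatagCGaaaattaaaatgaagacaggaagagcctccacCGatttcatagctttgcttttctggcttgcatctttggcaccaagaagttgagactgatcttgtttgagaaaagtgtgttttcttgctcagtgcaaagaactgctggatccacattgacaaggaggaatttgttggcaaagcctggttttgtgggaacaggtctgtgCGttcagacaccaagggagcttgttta

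Cracd (chr5:76840349-76840648, forward strand): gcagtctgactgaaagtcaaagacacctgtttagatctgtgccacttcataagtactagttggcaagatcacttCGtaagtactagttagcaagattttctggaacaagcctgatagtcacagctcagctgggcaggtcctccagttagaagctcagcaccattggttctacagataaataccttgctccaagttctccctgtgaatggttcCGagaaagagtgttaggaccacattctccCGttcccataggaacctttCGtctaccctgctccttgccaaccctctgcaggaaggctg

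Foxf2 (chr13:31625566-31625865, forward strand): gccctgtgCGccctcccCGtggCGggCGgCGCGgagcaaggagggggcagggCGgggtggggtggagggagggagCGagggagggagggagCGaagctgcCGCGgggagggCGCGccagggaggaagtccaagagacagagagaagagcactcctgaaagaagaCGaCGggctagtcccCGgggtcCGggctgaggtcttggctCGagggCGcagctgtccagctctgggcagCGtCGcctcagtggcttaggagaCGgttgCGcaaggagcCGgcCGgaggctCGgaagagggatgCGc

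These windows held 21, 4, 4 and 27 CG pairs. A count at least as high occurred in 24.8% of all 32851 RefSeq windows for Nup62cl, in 68.6% for Pcdh20 and for Cracd, and in 15.5% for Foxf2. Windows were found for 20 of the 22 called named genes outside the diploid range, with a median of 12 CG pairs (3 to 33), beside a median of 7 in all windows. The latter include genes too dim to be tested. The tested genes were not counted apart, so these medians cannot set called genes against other tested genes. Methylation was not measured.

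Genes of 4 lists for copying and dividing chromosomes had medians above that of all named genes, although 0 of their members passed the test. Of the named genes tested, 5.51% lay above the diploid range in all 6 polyploid clones and 2.61% below, and 0.217% were called. Above the range were 7 of 50 DNA replication genes, 7 of 40 spindle checkpoint and kinetochore genes, 6 of 25 cohesin and condensin genes and 7 of 27 genes of cytokinesis and mitotic motors, and 0 members of the 4 lists were below. Median differences were 0.50, 0.34, 0.57 and 0.25, beside 0.10 over all named genes. All 25 cohesin and condensin genes and 48 of 50 replication genes had a difference above 0. A further pair of cell division lists stood close to all named genes, with a median of 0.08 and 2 of 30 above the range for centrosome and centriole genes and a median of 0.16 and 2 of 25 for cyclins and their kinases. Medians of the same order occurred in lists outside cell division, among them chaperones and the unfolded protein response (0.34, with 5 of 35 above). With the percentile taken over the probes bright on all arrays, 4, 3, 4 and 6 members lay above the range, with 3.22% of named genes above.

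Kif11, the motor that pushes spindle poles apart, had levels of 0.91, 0.31 and -0.06 in diploid clones, of 1.28, 1.92 and 1.97 in triploid clones and of 1.31, 1.79 and 1.55 in tetraploid clones. All 6 polyploid clones lay above, and the difference of 1.25 ± 0.27 did not pass (adjusted p = 0.0858, limma). Mcm7, a subunit of the replicative helicase, had 5.46, 5.05 and 4.98 in diploid clones and between 5.48 and 6.63 in polyploid clones (1.01, adjusted p = 0.11). Ncapg, a condensin subunit, had -1.45, -1.74 and -1.83 in diploid clones and between -1.09 and -0.69 in polyploid clones (0.81 ± 0.18, adjusted p = 0.0905). Cdca5, the sororin that protects cohesion, differed by 0.80 (adjusted p = 0.094), Ndc80, which binds kinetochores to microtubules, by 0.86 (adjusted p = 0.104) and Ect2, which starts cytokinesis, by 0.97 (adjusted p = 0.142). The median of tetraploid clone 3 over the replication list was -0.32 relative to the genes' means, within the diploid values of -0.37 to -0.27, while triploid clones had 0.25 to 0.42.

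**Figure D3:**
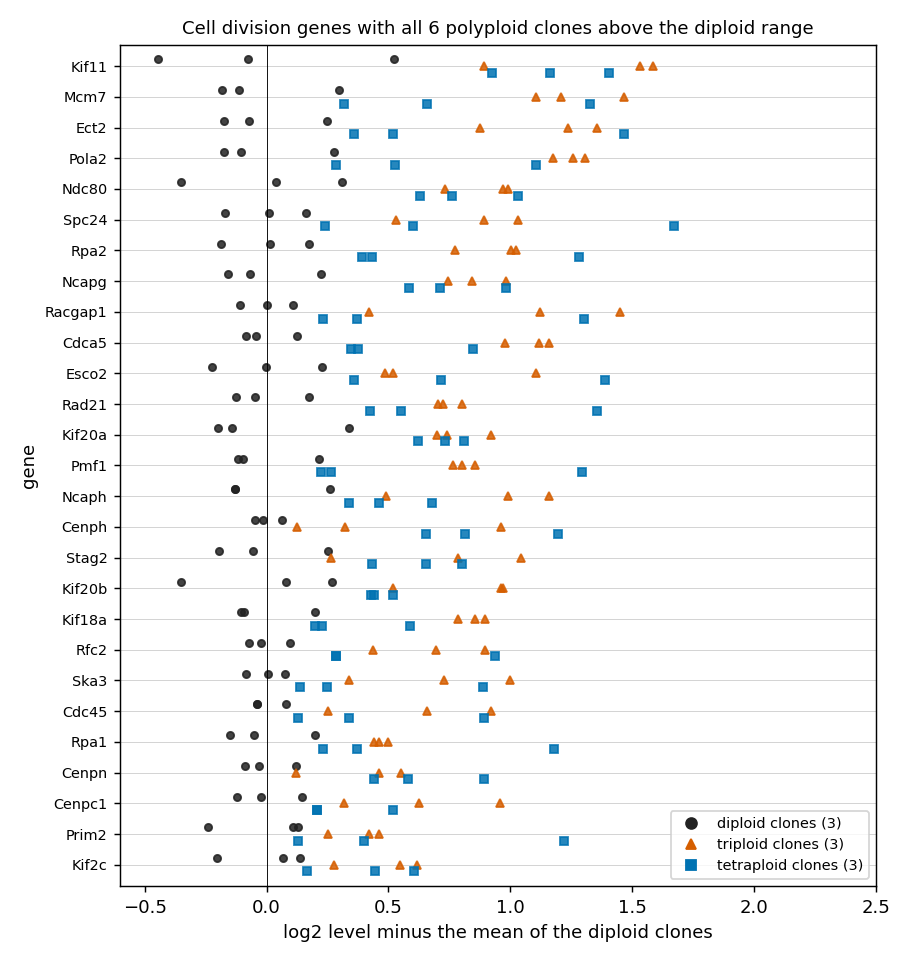
Log2 level minus the mean of the diploid clones (x axis) in each of the 9 clones for the 27 genes of 4 cell division lists at which all 6 polyploid clones lie above the diploid range (y axis). Differences run from 0.44 to 1.25, with Kif11 the largest, and 0 of the 27 pass the test (adjusted p from 0.0858 to 0.374).

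DNA repair genes were mostly higher, with 41 of 49 members above 0 and 8 below. The 2 below the diploid range, Ercc1 and Ercc2, both lie on chromosome 7, described further below. Ercc1, at 4.2, 3.91 and 4.52 in diploid clones against 2.68, 2.09 and 2.23 in triploid and 3.47, 3.19 and 3.42 in tetraploid clones, was the 1 member of 49 called. Ercc2, a helicase of the same repair route, had a difference of -1.01 (adjusted p = 0.0735) and lay below the range too, whereas 7 members lay above it. Among these, Ddb2, which recognises ultraviolet damage and is a known p53 target, was at -1.44, -0.82 and -0.73 in diploid clones and between -0.52 and 0.50 in polyploid clones (1.07, adjusted p = 0.0842), and the checkpoint kinase Chek2 differed by 0.97 (adjusted p = 0.104). The list's median was 0.39. Of 29 p53 targets, 2 lay above the range and 1 below, close to the background. The lower one was Pmaip1, the pro-apoptotic Noxa, at 1.12, 0.88 and 0.53 in diploid clones and from -5.85 to -0.66 in polyploid clones. Its fitted difference was -3.28 (adjusted p = 0.149, limma), or -2.95 with dark arrays at the lowest bright signal.

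Genes of antigen presentation and of NF-kB had higher medians. Of 15 antigen presentation genes, Tapbp was called and 4 (26.7%, beside 5.51% of all named genes) lay above the range, with a median of 0.60. The others above were Psme1, a proteasome activator (0.70), and the chaperones Calr (0.73) and Pdia3 (0.67), of which the last 2 also stand in the list of chaperones. Of 29 NF-kB targets and chemokines, Saa3 was called and 4 (13.8%) lay above the range. The list's median was 0.47, with medians of 0.79 in triploid and 0.26 in tetraploid clones. Over this list, relative to the genes' means, tetraploid clone 3 had a median of -0.46, below the diploid values of -0.44 to -0.14. The interferon response list stood close to all named genes, with a median of 0.11, 13 of 21 members positive and 2 above the range. Those were the regulator Irf1 and the sensor Cgas. Irf1 had 2.84, 3.04 and 2.98 in diploid clones, 4.61, 4.30 and 3.99 in triploid clones and 3.61, 3.63 and 3.47 in tetraploid clones (0.98 ± 0.19, adjusted p = 0.069). Cgas, which senses DNA, had 1.79, 1.95 and 1.88 in diploid clones and between 2.25 and 2.78 in polyploid clones (0.67, adjusted p = 0.141). With the percentile over the bright probes, 3 antigen presentation and 1 NF-kB member lay above the range, and both medians remained above 0 (0.47 and 0.33).

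Adhesion and growth factor genes had medians below 0, and medians of the matrix lists differed between the kinds of polyploid clone. Of 40 integrin, actin and focal adhesion genes, 5 (12.5%) lay below the range and 0 above, with a median of -0.33 and 0 called. Of all named genes, 2.61% lay below and 5.51% above. Among them were the actin crosslinkers Flna (-0.55) and Actn1 (-0.88), the integrin Itga8 (a fitted -3.48, or -2.55 with its dark triploid arrays at the lowest bright signal) and smooth muscle actin Acta2 (-1.02). Of 41 collagen and matrix genes, 0 lay outside the range and Mfap5, low in the triploid clones alone, was called. Their median was -0.25, and the separate medians were -0.38 for triploid and 0.13 for tetraploid clones. Tetraploid clones 1 and 3, at 0.38 and 0.70 relative to the genes' means, exceeded the diploid clones (-0.34 to 0.37). Matrix proteases and their inhibitors had -0.58 in triploid and 0.27 in tetraploid clones, but the clones overlapped. Relative to the genes' means, tetraploid clones 1 to 3 had 0.17, -0.41 and 1.08, and triploid clones -0.44 to -0.36. Of 37 growth factor and MAPK genes, Mycl was called and was the only one below the range (2.7%, close to the share of all named genes), with a median of -0.36. The TGF-beta family list had a median of 0.06, and its members below the range included the activin subunit Inhba, at 5.04, 5.32 and 5.53 in diploid clones and between 2.54 and 4.46 in polyploid clones (-1.70, adjusted p = 0.0832). The Hippo list had a median of 0.13, with 16 of 29 members positive, 1 above the range and 2 below. Of those below, the receptor kinase Axl had 5.51, 5.46 and 5.25 in diploid clones and between 4.00 and 4.69 in polyploid clones (-1.05, adjusted p = 0.071). The 21 HOX genes tested had a median of -0.98, and 0 of them had all 6 polyploid clones outside the range. Their triploid median was -1.94, against -0.18 in tetraploid clones. Relative to the genes' means, tetraploid clone 1, at -0.34, lay within the triploid values of -1.29 to -0.26.

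Few protein synthesis and turnover genes lay outside the diploid range, although ribosome biogenesis and proteasome genes had medians above the 0.10 of all named genes. Cytosolic ribosomal protein genes had a median of -0.10 with 0 of 35 outside the range. Ribosome biogenesis genes had a median of 0.37, with triploid clones at 0.72 and tetraploid clones at -0.06, and 29 of 31 were positive with 1 above the range. Proteasome genes had a median of 0.27, 31 of 35 positive, with 0 above the range and Psmd8, a lid subunit, below it. Of 40 nuclear pore and lamina genes, Nup62cl was called lower, and 2 lay above the range. In all, 9 members of the lists were called, while 0.217% of all named genes tested were. Some genes stand in more than 1 list and distinct members were not totalled, so no share is given for the 9. Leaving out diploid clone 1 or 3 made the 9 called members 0 or 2. Leaving out triploid clones 1, 2 and 3 in turn made them 48, 3 and 5, and leaving out tetraploid clone 1 made them 5.

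**Figure D4:**
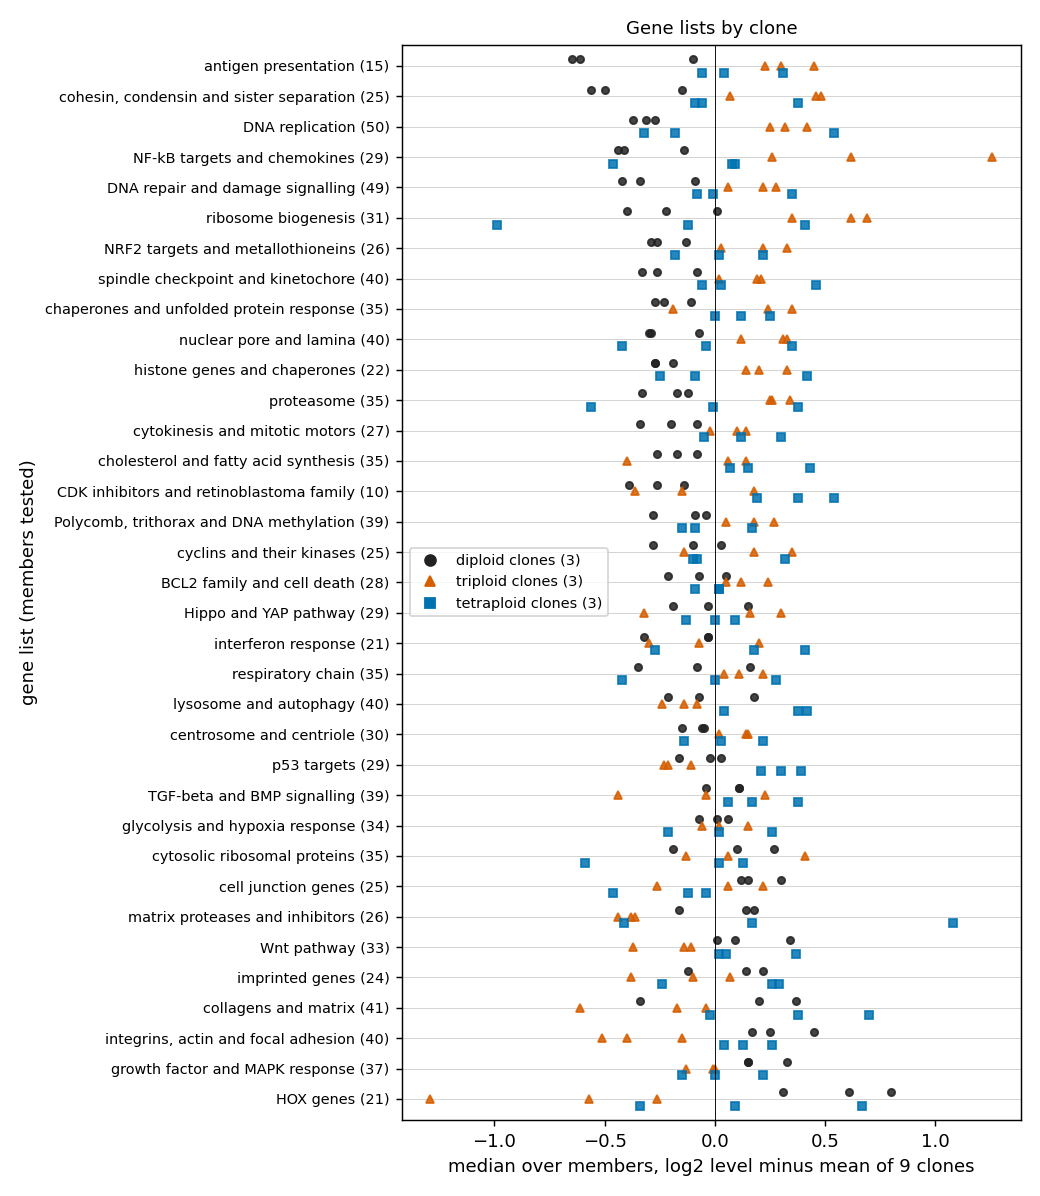
Median over the members of each of 35 gene lists (y axis, members tested in brackets) of the log2 level minus the gene's mean over 9 clones (x axis), with 1 point per clone; circles are diploid, triangles triploid and squares tetraploid. For cohesin and condensin genes the diploid clones sit from -0.56 to -0.15 and the polyploid clones from -0.09 to 0.48, whereas for ribosome biogenesis genes tetraploid clone 3, at -0.99, lies below all diploid clones.

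Of 26 markers of other cell types, 10 were dark on all 9 arrays, 9 were bright on all 9 and 7 were bright on some. The dark ones were epithelial (Epcam, Cdh1), of macrophages (Adgre1, Ptprc), of muscle (Myod1, Myog, Des), of pluripotent cells (Pou5f1, Zfp42) and of trophoblast (Cdx2). Bright on all 9 were the endothelial genes Kdr and Pecam1, the macrophage gene Csf1r, the neural genes Nes, Tubb3 and Map2, Nanog, and the trophoblast genes Prl3d1 and Gcm1. Kdr ran from 4.62 to 5.00 in diploid and from 3.75 to 5.17 in polyploid clones, and Csf1r from 3.24 to 3.56 and from 2.19 to 3.52. The summed levels of the neural markers overlapped, from 2.72 to 3.82 in diploid and from 2.18 to 3.73 in polyploid clones, as did those of the endothelial markers (4.64 to 5.01 and 3.78 to 5.18), of the macrophage markers (3.25 to 3.57 and 2.21 to 3.54) and of the pluripotency markers (-0.55 to -0.33 and -0.93 to -0.19). Krt18, an epithelial keratin, was at 0.96, 0.81 and -1.49 in diploid clones and between -4.97 and -1.57 in polyploid clones. Its fitted difference was -3.39 (adjusted p = 0.104, limma), or -3.18 with dark arrays at the lowest bright signal. The summed level of the 4 epithelial markers ran from -1.29 to 1.07 in diploid clones and from -3.42 to -1.22 in polyploid clones. The trophoblast markers summed to 4.69 to 5.16 in diploid clones and to 3.34 to 4.28 in polyploid clones. These sums add linear signals, so the trophoblast one is mostly Gcm1, at 4.62 to 5.06 and 3.25 to 4.21. Gcm1 differed by -1.07 (adjusted p = 0.089, limma). Prl3d1 was lower too (-1.88), whereas Eomes differed by 0.19 (adjusted p = 0.893, limma). The fibroblast markers overlapped (9.89 to 10.37 and 9.21 to 10.45). Thy1, a surface protein of fibroblasts, was at 6.42, 7.63 and 2.55 in diploid clones and between -4.86 and 2.66 in polyploid clones, so the groups overlapped. Its fitted difference was -8.15 (adjusted p = 0.0832, limma), or -7.84 with dark arrays at the lowest bright signal. The part of cell mixture in the results above was not tested.

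Levels were then summarised by chromosome. Taking from each gene its mean over clones, the median over a chromosome put all 6 polyploid clones on 1 side of the diploid clones at 7 of 20 chromosomes, 6 of them higher. Relative to the median of all named genes of the clone, 8 chromosomes did so, 5 higher and 3 lower. Chromosomes 7, 8 and 15 stood on the same side under these and both other scalings tried. On chromosome 7 the diploid clones had 0.20, 0.26 and 0.19 relative to all named genes, the triploid clones -0.01, -0.31 and -0.25 and the tetraploid clones 0.00, -0.12 and 0.02. The difference was -0.33, and -0.36 to -0.29 with each clone left out. Of 984 genes there, 90 (9.15%) lay below the diploid range and 4 above, against 2.61% and 5.51% of all named genes.

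The lower levels on chromosome 7 were spread over its length. In 4 blocks of 246 genes in order along it, the median differences before centring on all genes were -0.21, -0.25, -0.28 and -0.18, with 24, 18, 26 and 22 genes below the range. The genes called lower on it were Fes and Ercc1, and Saa3, called higher, lies on it too. Ercc2, Axl and Psmd8, below the diploid range but not called, are also on chromosome 7. Chromosomes 8 and 15 were higher by 0.20 and 0.22 relative to all named genes, with 77 of 684 genes (11.3%) and 51 of 514 (9.92%) above the range. Tetraploid clone 2 had the highest value on chromosome 15, at 0.30, and diploid clones ran from -0.16 to -0.13. Copy number was not measured, so the part of chromosome copies in these levels was not tested.

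**Figure D5:**
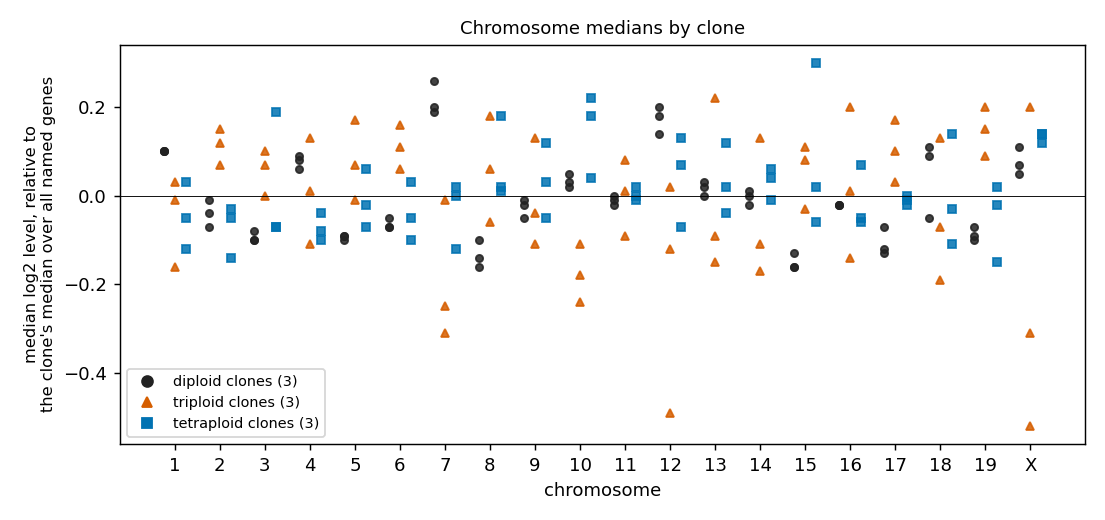
Median log2 level over the named genes of each chromosome (x axis), relative to the clone's median over all named genes (y axis, log2), with 1 point per clone; circles are diploid, triangles triploid and squares tetraploid. On chromosome 7 the diploid clones lie between 0.19 and 0.26 and all 6 polyploid clones at or below 0.02, and on chromosomes 8 and 15 the diploid clones are the lowest.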

How the data were processed

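Total RNA from 9 clones was hybridised to 1-colour Agilent mouse arrays, 1 array per clone. Per the file headers, Feature Extraction 10.7.3.1 read the spots and wrote the processed signal as an intensity after background subtraction, and the array was designed on mm9. A log2 table that the authors deposited beside them matched, within 0.001 at 100% of probes, the log2 signal less 1 constant per array and less diploid clone 1. Free-text descriptions of 8 clones count up from p53, read as errors of entry.

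Here the log2 intensity was centred on each array's 75th percentile (215 to 407). Of 59305 spots that are no controls, 55681 probes remained after averaging, and 83 were dropped for outlier flags. A probe had to be well above background on all arrays of 1 ploidy, and the brightest probe stood for a gene. Symbols came from RefSeq GRCm38.p6, for 26373 probes, and 29225 had none. limma 3.58.1 in R 4.3.3 fitted 1 mean per ploidy over 9 arrays (prior degrees of freedom 3.19) with Benjamini-Hochberg adjustment. At-least folds set dark arrays to the lowest bright signal. The rule named the 12 largest called differences per direction outside the diploid range, filled by smallest p, called list members, and the 3 smallest p of each list. Ahrr, Cspg4, Dnm3os, Hoxa11os, Npas4, Tbc1d2 and Tnni3k were named after their values were seen. The comparison and the gene lists were chosen with earlier results of these data known. The script was tested on simulated data. The alternatives covered background correction, scaling, filters, probe choice, model, slide, clone number and each clone left out; the planned mean pixel signal was replaced by the median. Chromosome medians centred on all named genes, or scaled over the bright probes, were added after seeing the data.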

Additional observations from a re-analysis of the deposited data

Results flagged for a closer look

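At 4 named genes, 1 of the 6 polyploid clones stood far from the other 5, with a gap over 0.625 of their range. These were Dnajb3 in tetraploid clone 3, at -2.06, Fabp3 in tetraploid clone 1, at 2.22, Foxf2 in tetraploid clone 2, at 1.28, and Morn5 in tetraploid clone 1, at -3.0. This was checked for 36 genes, and chance flags about 5% of groups.

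Triploid and tetraploid clones differed, by the fit's own contrast between them (limma, adjusted p under 0.05), at 12 of the genes named by difference from diploid. The triploid clones were lower for Hoxa11os (-9.23) and Cspg4 (-6.24), each bright on 2 triploid arrays, and higher for Bmf (1.81). The triploid arrays were dark at 7 genes, where the fitted differences rest on background signal and are given with a bound. These were Mfap5 (-9.74, at least 395-fold), Hoxa11 (-9.40, at least 175-fold), Ahrr (-7.58, at least 57.7-fold), Ccdc68 (-5.14, at least 16.8-fold), Cracd (-3.85, at least 3.37-fold), Meox2 (-3.27, at least 2.26-fold) and Adgrg5 (-2.68, at least 1.80-fold). At Saa3 the tetraploid arrays were dark (3.80, at least 6.84-fold higher in triploid clones), and at Mycl (1.75) both were, so no size can be given. Both Hoxa11 and Hoxa11os lie on chromosome 6 and overlap on opposite strands.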

How the results depend on the processing

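None of the 27 called named genes reversed its direction under an alternative that tested it, and the count of called features moved with most settings. Against 55 called features, 19 of them differing between triploid and tetraploid clones, and 9 called list members, the percentile over bright probes gave 294, 44 and 21. No filter on dim probes gave 18, 8 and 3, and only probes bright on all 9 arrays gave 15, 0 and 2 over 18257 features. With 1 mean for all polyploid clones, 12 features and 2 list members were called. The slide as a block, which amounts to leaving out diploid clone 1, gave 8, 3 and 0, with 3195 features outside the diploid range in place of 1649. Normexp gave 8 differing between polyploid kinds. Leaving out each clone gave 8 to 592 called, 3 to 222 differing, 0 to 48 list members, 1847 to 3195 features outside the range and 6 to 11 chromosomes outside, beside 7. The cause of these moves was not tested, except that fewer clones widen what counts as outside. Of the 27 called named genes, 27 remained under the percentile over bright probes, 24 under quantile scaling, 14 under normexp and 3 with 1 polyploid mean.

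No label says whether clone numbers pair the clones. In deviations from the ploidy means, same-numbered clones correlated between -0.132 and 0.093 and differently numbered clones between -0.066 and 0.126. With 3 clones per ploidy these values cannot settle whether clones were paired. With the clone number as a replicate block, 17 features, 8 differing between polyploid kinds and 2 list members were called. At dark probes only bounds on the difference can be given, and 13 of the 55 called features were dark on all 6 polyploid arrays.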
